A study of Mus musculus with 3 samples.

Results

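The genes described here were the vascular endothelial growth factor (VEGF) ligands, their receptors and the neuropilins in the growing long bone of the mouse, 9 of the 55422 genes counted. They were taken by symbol: the 4 ligands *Vegfa*, *Vegfb*, *Vegfc* and *Pgf*, the 3 receptor tyrosine kinases *Kdr*, *Flt1* and *Flt4*, and the 2 neuropilins *Nrp1* and *Nrp2*. The set was chosen by the measured level of *Nrp1*, which was higher in septoclasts (SCs) than in metaphyseal stroma, so for all 9 genes that comparison is given as a description with no test. Single-cell RNA-sequencing counts came from untreated mice at postnatal week 3, labelled as C57BL/6, in 3 droplet libraries. The 2 metaphyseal libraries (replicates 1 and 2) held cells of dissected metaphyses from wild-type males (C57BL/6J in the study's methods), depleted of lineage-positive, CD45+ and CD117+ cells. The *Pdgfra-GFP* library held GFP+ cells sorted from the dissected metaphysis-epiphysis region of femur and tibia of male *Pdgfra-H2B-GFP* heterozygous knock-in reporters, in which the *Pdgfra* locus drives a nuclear GFP, and it is 1 sample. Among its 11242 cells were 309 EC-gated, 93 NEU-gated, 78 MAC-gated and 66 ERY-gated cells, and how these came into a sorted library was not tested. The number of mice behind each library is not given in the sources used here. The p-values then measure only the spread that remains between these libraries once each library's own shift is fitted, and this spread may be technical.

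VEGF-A binds KDR (VEGFR2), the main signalling receptor of endothelial cells (ECs), and FLT1 (VEGFR1), which also acts as a decoy. PGF and VEGF-B bind FLT1, whereas VEGF-C binds FLT4 (VEGFR3) and, once processed, KDR. Neuropilins lack kinase activity and serve as co-receptors for VEGFs and as receptors for class 3 semaphorins. In the growth plate, hypertrophic chondrocytes secrete VEGF-A and blood vessels invade the cartilage, which septoclasts, stromal cells next to these vessels, help to resorb.

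The genes lie apart in the genome (GRCm38, Gencode M21, all protein coding). On the minus strand are *Vegfa* on chromosome 17 from 46016993 to 46032369, *Vegfb* on chromosome 19 from 6982473 to 6987651, *Pgf* on chromosome 12 from 85166635 to 85177790, *Kdr* on chromosome 5 from 75932827 to 75978458 and *Flt1* on the same chromosome from 147561604 to 147726011. On the plus strand are *Vegfc* on chromosome 8 from 54077606 to 54187096, *Flt4* on chromosome 11 from 49609263 to 49652739, *Nrp1* on chromosome 8 from 128358604 to 128503363 and *Nrp2* on chromosome 1 from 62703285 to 62818695. The locus of *Nrp2* holds a second annotated transcript on its own strand, *Gm37121*, with 1222 UMIs (unique molecular identifiers, 1 per captured transcript molecule) against 26247 for *Nrp2* over all cells, and reads could be split between both.

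Promoters of 4 members are shown for the patterns that follow: *Kdr* and *Flt1* for the endothelial receptors, *Vegfc* for its high level in arterial ECs and in marrow stroma, and *Nrp2* for osteoblasts. The sequences are the bases upstream of the RefSeq start that lie outside the annotated gene (GRCm38.p6, 5′ to 3′ on the gene's strand): chr5:75978459-75978705 on the minus strand, chr5:147726012-147726261 on the minus strand, chr8:54077282-54077531 on the plus strand and chr1:62703067-62703284 on the plus strand. Capitals mark the GC box GGGCGG and its reverse CCGCCC, the binding motif of SP/KLF factors, which may overlap.
Kdr: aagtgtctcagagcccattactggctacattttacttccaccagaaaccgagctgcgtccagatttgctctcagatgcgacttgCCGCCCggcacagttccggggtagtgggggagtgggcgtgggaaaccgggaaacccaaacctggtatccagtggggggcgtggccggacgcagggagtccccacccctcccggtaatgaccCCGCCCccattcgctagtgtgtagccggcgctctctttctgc
Flt1: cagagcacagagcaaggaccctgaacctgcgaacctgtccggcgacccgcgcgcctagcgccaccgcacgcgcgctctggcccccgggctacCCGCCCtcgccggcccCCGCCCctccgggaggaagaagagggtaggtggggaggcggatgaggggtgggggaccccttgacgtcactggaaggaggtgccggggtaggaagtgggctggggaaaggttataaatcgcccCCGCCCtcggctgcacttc
Vegfc: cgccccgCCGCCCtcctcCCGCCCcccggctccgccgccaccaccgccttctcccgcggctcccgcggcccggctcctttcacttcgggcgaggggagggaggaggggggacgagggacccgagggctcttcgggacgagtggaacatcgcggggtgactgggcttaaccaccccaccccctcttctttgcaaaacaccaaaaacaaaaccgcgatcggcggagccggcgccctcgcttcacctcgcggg
Nrp2: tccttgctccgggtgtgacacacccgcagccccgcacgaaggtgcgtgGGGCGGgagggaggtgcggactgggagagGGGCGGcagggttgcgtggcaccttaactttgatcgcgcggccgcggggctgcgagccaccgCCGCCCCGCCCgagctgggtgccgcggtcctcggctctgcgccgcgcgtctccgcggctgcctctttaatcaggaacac
Among the 32851 RefSeq windows of the 250 bases before a start, 32.7% held a GC box, and the windows of 9 of the 9 members did. The ETS core GGAA (reverse TTCC), the motif of a factor family that includes endothelial regulators, was in 93.4% of windows and in 8 of 9 members. Of the hypoxia response core, only the form ACGTG (reverse CACGT) was searched, and it was in 16.6% of windows and in 0 of 9 members. The form GCGTG (reverse CACGC) was not counted, and some of the sequences shown hold it, so a lack of the core cannot be read from this. These matches are descriptions of letters on both strands, not of binding sites.

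Metaphyseal replicates 1 and 2 had 25243314 and 22082735 UMIs and the *Pdgfra-GFP* library 91747759, of which the study's filters left 2382, 2004 and 11242 cells. Cells were assigned to populations by scores over marker genes that hold no VEGF gene, and a population cut from such a score is a range rather than a cell type. Of the 15628 cells 14404 were assigned, with 686 of them close to the cut. The metaphyseal libraries, labelled as mesenchymal stromal cells, were 47.1% and 44.5% EC-gated cells, with the summed EC markers at 3101 to 6079 CPM (counts per 1000000 UMIs of the population) in EC subtypes against 7.15 to 21.6 CPM in metaphyseal stroma. The SC gate held 9 cells of each metaphyseal library and 175 *Pdgfra-GFP* cells, and all 5 SC markers were detected in each library. These EC and SC markers also set the gates, so their values follow from the gating and do not test it. At most 10 cell barcodes were shared between any pair of libraries. Near-empty barcodes, which hold 10 to 100 UMIs, too few for a cell, were read as a background for each gene. In each value series that follows, the order is metaphyseal replicate 1, metaphyseal replicate 2 and the *Pdgfra-GFP* library.

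**Figure D1:**
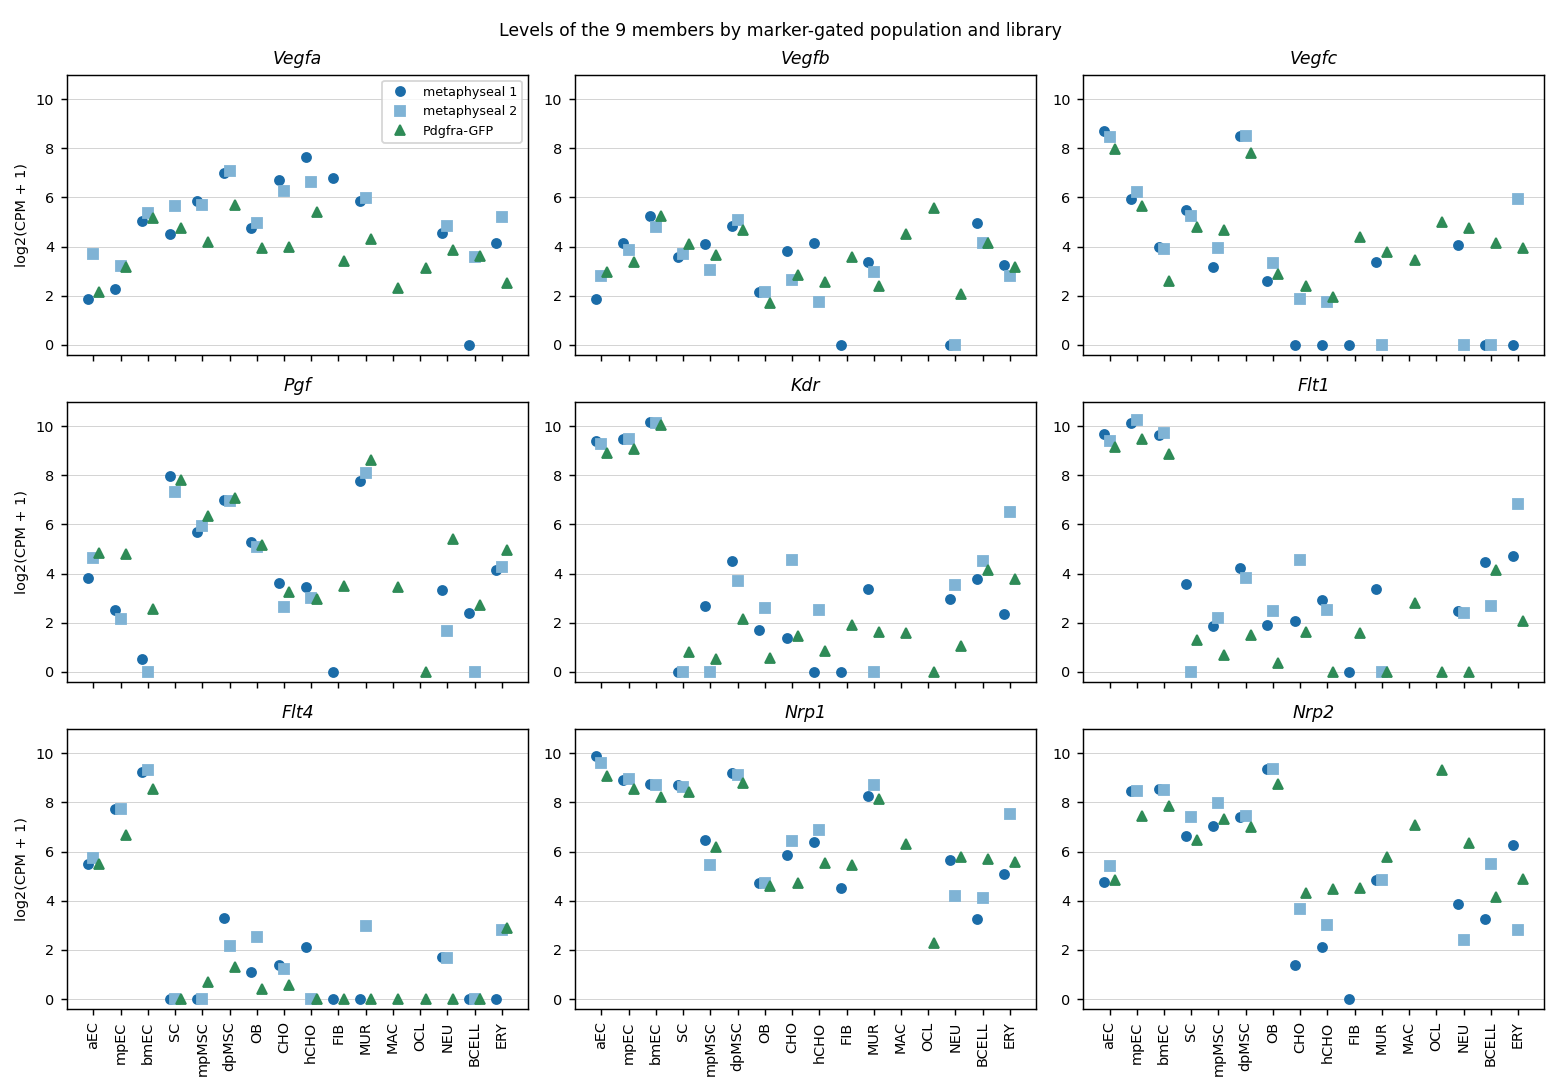
Level of each gene on a log2(CPM + 1) axis by marker-gated population (aEC, arterial; mpEC, metaphyseal capillary; bmEC, sinusoidal endothelial cells; SC, septoclasts; mpMSC, metaphyseal stroma; dpMSC, diaphyseal and marrow stroma; OB, osteoblasts; CHO, chondrocytes; hCHO, hypertrophic chondrocytes; FIB, fibroblasts; MUR, mural cells; MAC, macrophages; OCL, osteoclasts; NEU, neutrophil precursors; BCELL, B lineage; ERY, erythroid), 1 point per library with at least 5 cells. *Kdr*, *Flt1* and *Flt4* are highest in the 3 EC subtypes, *Pgf* in MUR and SC, and *Nrp2* in OB and OCL.

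The 7 comparisons between populations were tested over 22 sums of UMIs, each from 10 or more cells of 1 population in 1 library. The fit held mpMSCs, dpMSCs, OBs and CHOs of all libraries, the EC subtypes and the EC-gated cells of no subtype from the metaphyseal libraries, and SCs and fibroblasts from the *Pdgfra-GFP* library, and left out the other populations. All 9 genes passed the filter on low counts. In the fitted comparison with metaphyseal stroma (mpMSCs), ECs stand for the equally weighted mean of the log levels of the arterial, capillary and sinusoidal subtypes. The few arterial cells count there as much as the other subtypes, and EC-gated cells of no subtype are left out. Against mpMSCs, ECs differed in 7 of the 9 genes, of which 5 were higher and 2 lower, where 39.9% of the 14667 genes tested passed the same threshold. Marrow stroma (dpMSCs) differed from mpMSCs in 7 genes, all higher, beside 28.6% of all genes. Osteoblasts (OBs) differed from mpMSCs in 4 genes, 1 higher and 3 lower, beside 27.6% of all genes, and chondrocytes (CHOs) in 5, 2 higher and 3 lower, beside 30.8%. Within the endothelium, metaphyseal capillary ECs (mpECs) differed from sinusoidal ECs (bmECs) in 5 genes, 2 higher and 3 lower, beside 12.1% of all genes. Arterial ECs (aECs) differed from mpECs in 5 genes, 2 higher and 3 lower, beside 8.17%, and from bmECs in 8 genes, 3 higher and 5 lower, beside 15% of all genes. In each comparison the share of members past the threshold was above that of all genes, and since the genes were picked with results of these data known, nothing is read from this. *Nrp1* is among the called genes for ECs, dpMSCs and OBs, and because its mpMSC values were used to choose the set, these 3 differences are given as descriptions. The median log2 fold change of all genes was -0.20 in both aEC comparisons but at most 0.06 from 0 in the others. With DESeq2 size factors these medians were -0.04 and -0.05, and the share of called genes that were higher in aECs moved from 40.7% to 58.0% against mpECs and from 39.7% to 51.9% against bmECs.

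**Figure D2:**
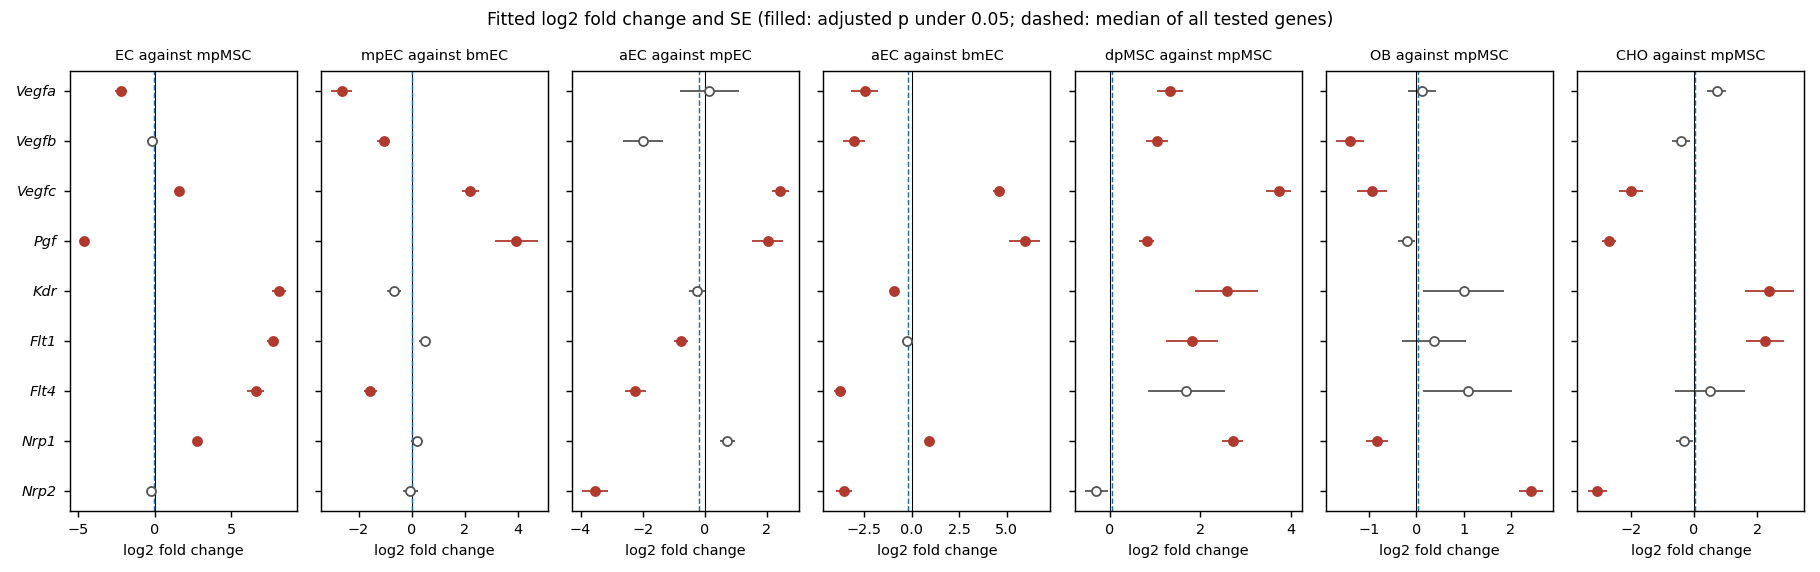
Fitted log2 fold change with its SE (bars) for the 9 genes in the 7 comparisons, each named population against the second. EC is the equally weighted mean of aEC, mpEC and bmEC. Filled points have an adjusted p under 0.05 (edgeR quasi-likelihood test), the dashed line is the median of all 14667 genes, and *Vegfc* and *Pgf* lie to the right of 0 in all 3 comparisons among EC subtypes. Points of *Nrp1* against mpMSC, filled or not, are descriptions, since its mpMSC values were used to choose the set.

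*Vegfa*, the ligand of KDR and FLT1, was read at 127, 135 and 51.3 CPM in dpMSCs and at 56.7, 50.02 and 17.0 CPM in mpMSCs. The dpMSC value was the higher in every library, and both populations were lower in the *Pdgfra-GFP* library than in either metaphyseal library. Near-empty barcodes had *Vegfa* at 63.2, 86.1 and 30.3 CPM, below dpMSCs and above mpMSCs, OBs, mpECs and aECs in each library. These barcodes lay below bmECs in the *Pdgfra-GFP* library but above bmECs in both metaphyseal libraries, on which the tests between EC subtypes rest. The part of free RNA in the levels below that of these barcodes was not tested. For dpMSCs against mpMSCs the fitted log2 fold change was 1.33 ± 0.28 (SE; edgeR quasi-likelihood test, Benjamini-Hochberg adjusted p = 0.000985), a call lost when the library was not a block (0.0767). ECs were lower than mpMSCs, with a log2 fold change of -2.20 ± 0.38 (SE; edgeR quasi-likelihood test, Benjamini-Hochberg adjusted p = 8.93e-05). *Vegfa* in OBs, at 26.3, 29.9 and 14.3 CPM, did not pass the test against mpMSCs. Within the endothelium, bmECs held *Vegfa* at 31.9, 40.7 and 34.8 CPM, mpECs at 3.88, 8.16 and 7.95 CPM, and aECs at 2.63, 11.8 and 3.43 CPM. The bmEC values did not overlap with those of either other subtype. The log2 fold change was -2.63 ± 0.40 in mpECs against bmECs (SE; edgeR quasi-likelihood test, Benjamini-Hochberg adjusted p = 8.33e-05). For aECs, which held only 6 *Vegfa* UMIs over all libraries, it was -2.49 ± 0.72 against bmECs (SE; edgeR quasi-likelihood test, Benjamini-Hochberg adjusted p = 0.0218), and without metaphyseal replicate 1 or 2 the adjusted p rose to 0.222 and 0.186.

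Among chondrocytes, the hypertrophic cells (hCHOs, gated by *Col10a1*, *Ihh* and *Panx3*) had *Vegfa* at 199, 96.9 and 41.9 CPM. The other CHO-gated cells had 12.6, 47.3 and 9.60 CPM, less than hCHOs in every library. The ratio was 15.8 (95% counting interval 5.85 to 59.7) and 2.05 (1.13 to 3.91) in the metaphyseal libraries, with 4 and 16 UMIs in the other CHOs, and 4.36 (3.32 to 5.72) in the *Pdgfra-GFP* library. The intervals are exact and cover counting error only, and hCHO sums were not in the fit. Of the CHO-gated cells, 24 of 40, 21 of 38 and 199 of 1694 were hCHOs, so the CHO gate held a different mix in the *Pdgfra-GFP* library. Whether this mix bears on differences of CHOs between libraries was not tested. CHOs as a whole did not pass the test against mpMSCs for *Vegfa* (log2 fold change 0.71 ± 0.31, SE; edgeR quasi-likelihood test, Benjamini-Hochberg adjusted p = 0.0909), although they did without the *Pdgfra-GFP* library (0.98, adjusted p = 0.0153 by the same edgeR test). *Vegfa* by population was ordered hCHO, dpMSC, CHO, MUR, mpMSC, late OB and bmEC by mean, with overlapping ranges at every step of that order.

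*Vegfb*, a ligand of FLT1, was low in all populations, and stood at 12.8, 17.0 and 6.9 CPM in near-empty barcodes, above OBs and aECs in each library. It stood at 36.7, 26.6 and 37.3 CPM in bmECs and 27.7, 32.6 and 24.5 CPM in dpMSCs, whose ranges overlapped, and at 16.2, 7.15 and 11.5 CPM in mpMSCs. OBs, at 3.40, 3.44 and 2.24 CPM, lay below mpMSCs in every library, with a log2 fold change of -1.40 ± 0.29 (SE; edgeR quasi-likelihood test, Benjamini-Hochberg adjusted p = 0.00101). That call was lost without the *Pdgfra-GFP* library (adjusted p = 0.228, edgeR quasi-likelihood test with Benjamini-Hochberg adjustment). dpMSCs were higher than mpMSCs by 1.05 ± 0.25 on the log2 scale (SE; edgeR quasi-likelihood test, Benjamini-Hochberg adjusted p = 0.00256), a call that was lost without metaphyseal replicate 2 (0.0584) or without the *Pdgfra-GFP* library (0.088). In aECs *Vegfb* had 1, 2 and 2 UMIs, or 2.63, 5.90 and 6.86 CPM, and was lower than in bmECs by the fit, with a log2 fold change of -3.04 ± 0.57 (SE; edgeR quasi-likelihood test, Benjamini-Hochberg adjusted p = 0.000653), a call lost without metaphyseal replicate 1 (0.179). mpECs, at 16.8, 13.6 and 9.28 CPM, were lower than bmECs in every library (-1.05 ± 0.24, SE; edgeR quasi-likelihood test, Benjamini-Hochberg adjusted p = 0.00519), a call lost without metaphyseal replicate 1 (0.355) or 2 (0.198). In the *Pdgfra-GFP* library the 20 OCL-gated cells had 46.6 CPM (95% counting interval 24.1 to 81.3) from 12 UMIs.

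*Vegfc*, the ligand of FLT4, had 2 populations of high level. aECs held 418, 354 and 247 CPM and dpMSCs 362, 361 and 224 CPM. Their ranges overlapped, and every other population lay below both in each library, among them the EC-gated cells of no subtype at 88.8, 63.6 and 171 CPM and mpECs at 60.5, 72.7 and 49.0 CPM. Near-empty barcodes had *Vegfc* at 105, 118 and 62.3 CPM, above mpECs, bmECs and mpMSCs in each library, and the part of free RNA in those levels was not tested. In bmECs it was at 14.8, 14.1 and 4.97 CPM, so that the 3 EC subtypes did not overlap. The log2 fold change was 2.42 ± 0.27 in aECs against mpECs (SE; edgeR quasi-likelihood test, Benjamini-Hochberg adjusted p = 3.29e-06) and 4.62 ± 0.33 against bmECs (2.29e-09). mpECs exceeded bmECs by 2.19 ± 0.32 (SE; edgeR quasi-likelihood test, Benjamini-Hochberg adjusted p = 6.64e-05), a call that was lost without metaphyseal replicate 2 (0.0996). In mpMSCs *Vegfc* was at 8.09, 14.3 and 24.4 CPM, 3, 4 and 116 UMIs, and dpMSCs were higher by 3.72 ± 0.28 on the log2 scale (SE; edgeR quasi-likelihood test, Benjamini-Hochberg adjusted p = 4.70e-09). OBs, at 4.99, 9.0 and 6.40 CPM, were called lower than mpMSCs (-0.93 ± 0.32, SE; edgeR quasi-likelihood test, Benjamini-Hochberg adjusted p = 0.0345), but the call was lost without metaphyseal replicate 2 (0.132), and when the *Pdgfra-GFP* cells were left out the log2 fold change was -0.09 (adjusted p = 0.967). CHOs had 0, 2 and 64 UMIs of *Vegfc* (0, 2.63 and 4.31 CPM) and were lower than mpMSCs by the fit (-1.99 ± 0.38, SE; edgeR quasi-likelihood test, Benjamini-Hochberg adjusted p = 0.000335), which was lost without the *Pdgfra-GFP* library (0.105). By the equally weighted mean of the 3 EC subtypes, ECs were higher than mpMSCs by 1.59 ± 0.31 (SE; edgeR quasi-likelihood test, Benjamini-Hochberg adjusted p = 0.000321), and by 2.63 without the *Pdgfra-GFP* cells. In CPM, bmECs alone lay above mpMSCs only in metaphyseal replicate 1. *Vegfd*, the other known FLT4 ligand, had 14, 14 and 52 UMIs in dpMSCs (3.03, 3.22 and 2.77 CPM). The FIB-gated cells of the *Pdgfra-GFP* library had 16 UMIs, or 10.9 CPM.

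*Pgf*, a ligand of FLT1 alone among the kinases, was read at 215, 276 and 389 CPM in mural cells (MURs) and at 249, 158 and 222 CPM in SCs. These ranges overlapped, and both lay above dpMSCs, at 126, 124 and 135 CPM, and mpMSCs, at 51.3, 60.7 and 81.0 CPM, in each library. MURs numbered 16, 20 and 74 cells, and their summed SC markers were 2076, 1793 and 2124 CPM with 2, 3 and 0 of the 5 markers at 0, against 8497 to 19300 CPM in SCs. In near-empty barcodes *Pgf* was at 48.7, 46.4 and 58.4 CPM, below mpMSCs and above OBs, CHOs and all EC subtypes in each library. Whether the SC markers bear on the *Pgf* level of MURs was not tested. The SC to mpMSC ratio was 4.86 (95% counting interval 2.53 to 9.44), 2.59 (1.16 to 5.67) and 2.74 (2.35 to 3.20), and the SC to dpMSC ratio was 1.97 (1.24 to 2.99), 1.27 (0.674 to 2.20) and 1.65 (1.46 to 1.86). These intervals cover counting error only, and neither ratio was tested. dpMSCs exceeded mpMSCs by 0.82 ± 0.17 on the log2 scale (SE; edgeR quasi-likelihood test, Benjamini-Hochberg adjusted p = 0.000686). CHOs, at 11.3, 5.25 and 8.55 CPM, were lower than mpMSCs (-2.69 ± 0.22, SE; edgeR quasi-likelihood test, Benjamini-Hochberg adjusted p = 5.32e-09), and so were ECs (-4.63 ± 0.28, adjusted p = 2.44e-11 by the same edgeR test). Within the endothelium *Pgf* had 5, 8 and 8 UMIs in aECs (13.2, 23.6 and 27.4 CPM), 18, 10 and 20 in mpECs (4.65, 3.40 and 26.5 CPM) and 1, 0 and 2 in bmECs. Over the metaphyseal libraries its ratio was 17.6 (95% counting interval 2.91 to 720) in mpECs against bmECs and 77.4 (11.6 to 3288) in aECs against bmECs, from 1 UMI in bmECs. The aEC against bmEC call was kept in all 13 alternatives (edgeR quasi-likelihood test, Benjamini-Hochberg adjusted p = 1.97e-05), whereas the calls against mpECs (0.0108) and of mpECs against bmECs (0.00172) were lost without metaphyseal replicate 1 (0.0508 and 0.0671) or 2 (0.591 and 0.103). OBs, at 38.3, 32.5 and 35.3 CPM, did not pass the test against mpMSCs.

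**Figure D3:**
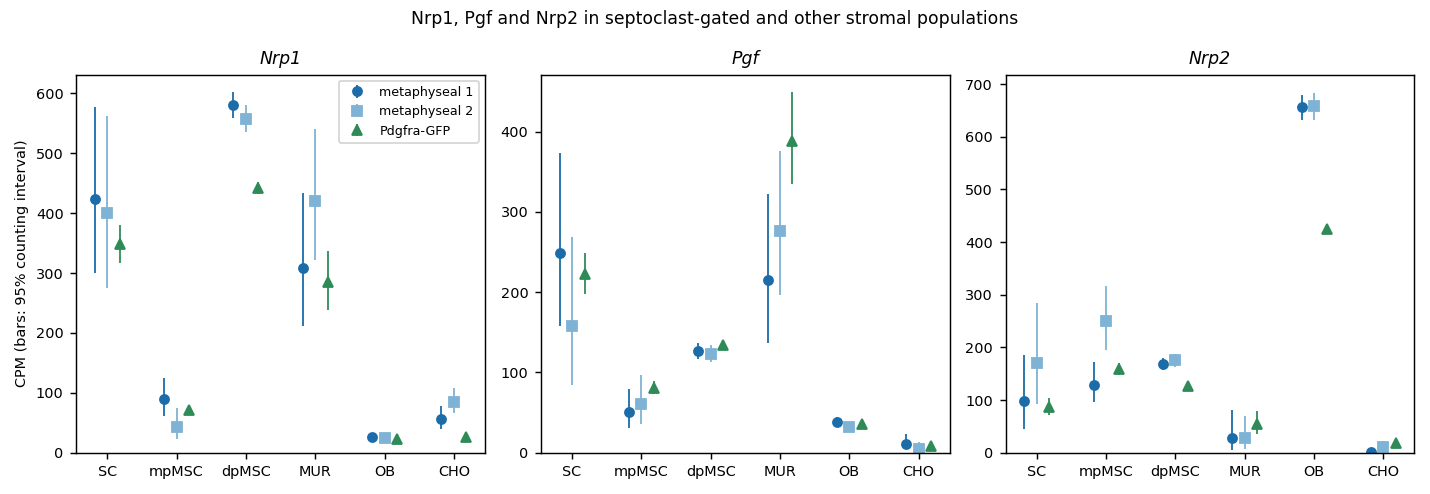
CPM of *Nrp1*, *Pgf* and *Nrp2* in SCs and other stromal populations by library, with bars for the 95% exact Poisson interval (counting error only). *Nrp1* and *Pgf* are higher in SCs than in mpMSCs in all 3 libraries, *Pgf* is as high in MURs, and *Nrp2* is highest in OBs.

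*Kdr* was read at 1137, 1131 and 1067 CPM in bmECs, 714, 705 and 539 CPM in mpECs and 681, 617 and 483 CPM in aECs. bmECs were the highest in each library, and the mpEC and aEC ranges overlapped. Against mpMSCs, which had 2, 0 and 2 *Kdr* UMIs, ECs were higher by 8.12 ± 0.46 on the log2 scale (SE; edgeR quasi-likelihood test, Benjamini-Hochberg adjusted p = 1.09e-11), a size that rests on these few UMIs. Over the metaphyseal libraries the ratio was 280 (95% counting interval 77.5 to 2313). aECs were lower than bmECs (-0.93 ± 0.27, SE; edgeR quasi-likelihood test, Benjamini-Hochberg adjusted p = 0.0235), but the call was lost without metaphyseal replicate 1 (0.295) or 2 (0.329). The difference of mpECs from bmECs (-0.68 ± 0.26, SE) did not pass the test (edgeR quasi-likelihood test, Benjamini-Hochberg adjusted p = 0.103), but did so without the *Pdgfra-GFP* library (-0.70, adjusted p = 7.76e-05).

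*Flt1* had another order among the subtypes, with mpECs at 1127, 1204 and 718 CPM, bmECs at 805, 856 and 472 CPM and aECs at 815, 678 and 576 CPM. mpECs were the highest in each library, while bmECs were above aECs in 1 of the 3 libraries. ECs exceeded mpMSCs, which held 1, 1 and 3 UMIs, by 7.73 ± 0.37 (SE; edgeR quasi-likelihood test, Benjamini-Hochberg adjusted p = 9.42e-13), and the ratio over the metaphyseal libraries was 332 (95% counting interval 91.9 to 2742). aECs were lower than mpECs by the fit (-0.76 ± 0.22, SE; edgeR quasi-likelihood test, Benjamini-Hochberg adjusted p = 0.0399), a call lost under 7 alternatives, among them those without metaphyseal replicate 1 (0.318) or 2 (0.707). For mpECs against bmECs the log2 fold change of 0.49 ± 0.22 (SE) did not pass the test (edgeR quasi-likelihood test, Benjamini-Hochberg adjusted p = 0.168).

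*Flt4*, which signals in lymphatic and in sinusoidal endothelium, was at 602, 639 and 373 CPM in bmECs, 213, 210 and 101 CPM in mpECs and 44.7, 53.1 and 44.6 CPM in aECs. The 3 ranges did not overlap, so that the order from bmECs to mpECs to aECs held in every library. The aEC values lay under the near-empty barcodes of the metaphyseal libraries, at 172 and 162 CPM. mpECs were lower than bmECs by a log2 fold change of -1.56 ± 0.23 (SE; edgeR quasi-likelihood test, Benjamini-Hochberg adjusted p = 7.73e-05), and aECs were lower than mpECs (-2.23 ± 0.34, SE; edgeR quasi-likelihood test, Benjamini-Hochberg adjusted p = 0.000125), and both calls were lost when the library was not a block (0.15 and 0.0658). In aECs against bmECs the log2 fold change was -3.79 ± 0.33 (SE; edgeR quasi-likelihood test, Benjamini-Hochberg adjusted p = 3.43e-08). mpMSCs had 0 *Flt4* UMIs in both metaphyseal libraries and 3 in the *Pdgfra-GFP* library. Against the floor of 3 counts over both metaphyseal mpMSC sums, *Flt4* was at least 75.3-fold higher in ECs. In SCs *Kdr*, *Flt1* and *Flt4* had 1, 3 and 0 UMIs over the 3 libraries, and the 0 allows up to 2.20 CPM of *Flt4* in the *Pdgfra-GFP* SCs at 3 counts.

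**Figure D4:**
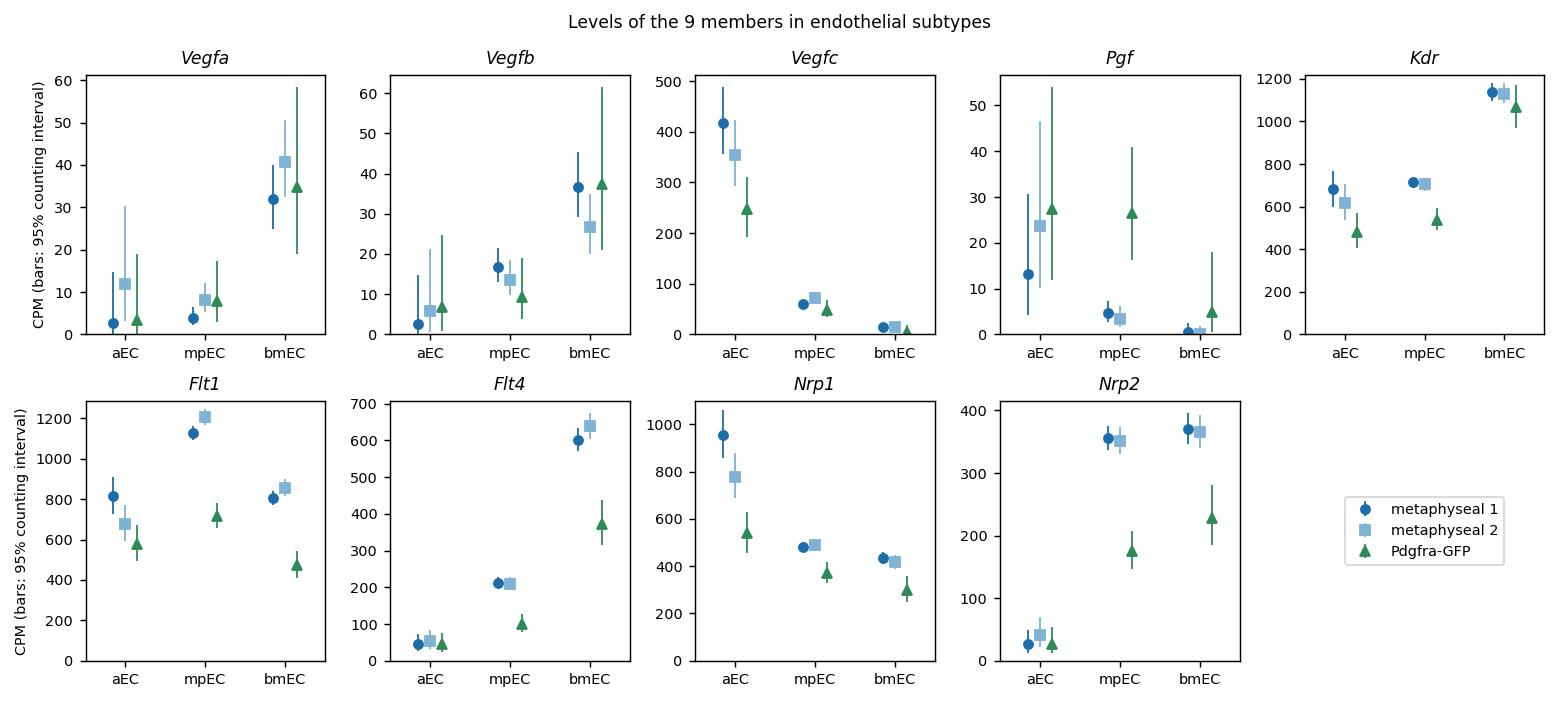
CPM of the 9 genes in aECs, mpECs and bmECs by library, with bars for the 95% exact Poisson interval (counting error only). *Vegfc* and *Nrp1* are highest in aECs, *Flt1* in mpECs, and *Vegfa*, *Vegfb*, *Kdr* and *Flt4* in bmECs, and *Nrp2* is lowest in aECs.

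Outside the endothelium *Kdr* was read at 22.1, 11.9 and 3.41 CPM in dpMSCs and at 1.62, 22.3 and 1.75 CPM in CHOs. *Flt1* stood at 17.7, 13.3 and 1.86 CPM in dpMSCs and at 3.24, 22.3 and 2.09 CPM in CHOs. These low levels were higher than in mpMSCs by the fit, with log2 fold changes for *Kdr* of 2.58 ± 0.70 in dpMSCs (SE; edgeR quasi-likelihood test, Benjamini-Hochberg adjusted p = 0.00815) and 2.38 ± 0.78 in CHOs (0.0236). For *Flt1* they were 1.81 ± 0.57 in dpMSCs (SE; edgeR quasi-likelihood test, Benjamini-Hochberg adjusted p = 0.0207) and 2.23 ± 0.59 in CHOs (0.00593). Markers of ECs moved with these values. The 4 EC markers, none of them at 0, summed to 109, 58.1 and 17.7 CPM in dpMSCs and to 13.0, 85.3 and 13.8 CPM in CHOs, beside 21.6, 7.15 and 8.61 CPM in mpMSCs, where 2 of the 4 were at 0 in metaphyseal replicate 2. In near-empty barcodes *Kdr* was at 371, 370 and 9.91 CPM, *Flt1* at 383, 378 and 8.67 CPM and *Flt4* at 172, 162 and 1.42 CPM, above its level in every stromal population of the metaphyseal libraries. With called doublets removed, all 4 calls were lost (adjusted p for *Kdr* 0.275 in dpMSCs and 0.287 in CHOs, and for *Flt1* 0.433 and 0.0818), and the CHO calls were lost without metaphyseal replicate 2 as well (0.164 and 0.0887, edgeR quasi-likelihood test with Benjamini-Hochberg adjustment). They were also lost without the *Pdgfra-GFP* library (*Kdr* 0.102 in dpMSCs and 0.171 in CHOs, *Flt1* 0.0786 and 0.0891), and that of *Flt1* in dpMSCs without metaphyseal replicate 1 (0.122) or 2 (0.077). The part of EC RNA in these values was not tested.

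**Figure D5:**
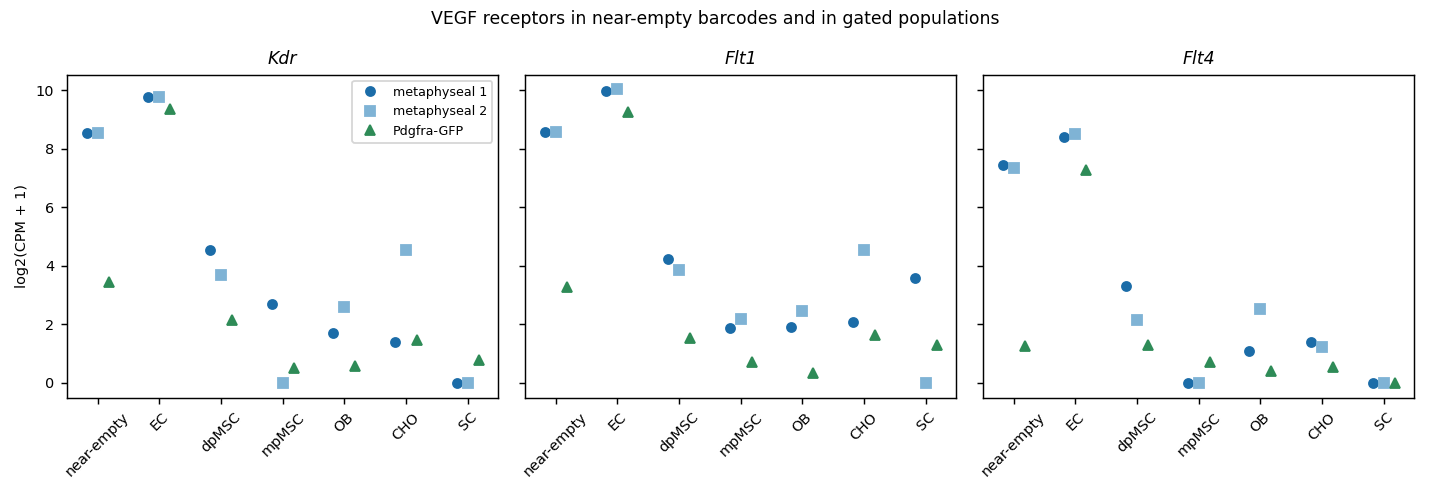
Level of the 3 receptors on a log2(CPM + 1) axis in near-empty barcodes and in 6 populations, 1 point per library. In the metaphyseal libraries the near-empty barcodes lie above every stromal population and below ECs taken as a whole, and in the *Pdgfra-GFP* library they are lower for all 3 receptors.

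*Nrp1*, a co-receptor of VEGF-A and receptor of SEMA3A, chose the set. SCs held 423, 400 and 348 CPM and mpMSCs 89.0, 42.9 and 71.4 CPM, without overlap. The SC to mpMSC ratio was 4.75 (95% counting interval 2.91 to 7.79) and 9.33 (4.69 to 19.8) in the metaphyseal libraries, from 9 SCs each, and 4.87 (4.23 to 5.62) in the *Pdgfra-GFP* library. In near-empty barcodes *Nrp1* was at 280, 287 and 74.3 CPM, below SCs and above mpMSCs in each library. In the *Pdgfra-GFP* library 82.9% of SCs and 33.4% of mpMSCs had at least 1 *Nrp1* UMI, at median depths of 7812 and 6328 UMIs per cell, and with each cell thinned to 2000 UMIs the shares were 43.7% of 167 and 12.8% of 702 cells, after 8 and 26 shallower cells were left out. The ERY-gated cells of that library, erythroid cells that should lack it, had 18.2% at a median depth of 8562 UMIs, and 7.58% when thinned. Over the libraries the *Nrp1* level of ERY-gated cells ran from 33.5 to 186 CPM. Its highest value, from 12 cells of metaphyseal replicate 2, lay above every mpMSC value and below every SC value. The same cells held *Kdr* at 90.1 CPM and *Flt1* at 114 CPM, and the part of EC RNA in their *Nrp1* level was not tested. The level of SCs was not the highest of the stroma. dpMSCs had 580, 557 and 442 CPM, with an SC to dpMSC ratio of 0.73 (0.517 to 0.999), 0.72 (0.493 to 1.01) and 0.79 (0.716 to 0.864), and MURs had 309, 421 and 284 CPM.

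The mpMSC values of *Nrp1* were used to choose the set, so other differences from them carry no test either. Their fitted log2 fold change was 2.71 in dpMSCs and 2.72 in ECs. OBs, at 25.6, 25.4 and 23.1 CPM, lay below mpMSCs in every library, with a fitted log2 fold change of -0.83. Among EC subtypes aECs had the highest *Nrp1*, at 955, 779 and 538 CPM, against 481, 490 and 370 CPM in mpECs and 434, 417 and 298 CPM in bmECs. In each library the order was aECs, mpECs and bmECs. aECs exceeded bmECs by 0.90 ± 0.24 (SE; edgeR quasi-likelihood test, Benjamini-Hochberg adjusted p = 0.0137), which was lost without metaphyseal replicate 1 (0.467) or 2 (0.152), whereas the difference from mpECs (0.72 ± 0.24, SE) did not pass the test (edgeR quasi-likelihood test, Benjamini-Hochberg adjusted p = 0.0800) but did with DESeq2 size factors (0.89, adjusted p = 0.0323) and without the *Pdgfra-GFP* library (0.77, adjusted p = 7.92e-06). hCHOs exceeded the other CHOs 2.63-fold, 2.45-fold and 2.12-fold (95% counting intervals 1.22 to 6.13, 1.37 to 4.61 and 1.68 to 2.65).

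*Nrp2*, the co-receptor of FLT4 and receptor of SEMA3F, was at 656, 658 and 425 CPM in OBs, and the 167 UMIs of the 20 OCL-gated cells in the *Pdgfra-GFP* library gave 648 CPM. mpMSCs had 130, 250 and 159 CPM, below OBs in every library. OBs were higher by 2.42 ± 0.25 on the log2 scale (SE; edgeR quasi-likelihood test, Benjamini-Hochberg adjusted p = 5.07e-07). In CHOs *Nrp2* was at 1.62, 11.8 and 18.9 CPM, lower than in mpMSCs with a log2 fold change of -3.05 ± 0.31 (SE; edgeR quasi-likelihood test, Benjamini-Hochberg adjusted p = 1.06e-07). SCs, at 97.5, 170 and 87.3 CPM, lay below mpMSCs in each library, with ratios of 0.75, 0.68 and 0.55. Only the ratio of the *Pdgfra-GFP* library had a counting interval that left out 1 (0.448 to 0.665). Near-empty barcodes had *Nrp2* at 260, 275 and 109.5 CPM, above SCs in each library and above mpMSCs and dpMSCs in both metaphyseal ones. dpMSCs, at 168, 175 and 127 CPM, did not pass the test against mpMSCs. Within the endothelium aECs had 26.3, 41.3 and 27.4 CPM, whereas mpECs had 355, 352 and 175 CPM and bmECs 370, 366 and 229 CPM. aECs lay below both in every library, and mpECs and bmECs overlapped. The log2 fold change of aECs was -3.52 ± 0.41 against mpECs (SE; edgeR quasi-likelihood test, Benjamini-Hochberg adjusted p = 5.69e-06) and -3.58 ± 0.42 against bmECs (1.89e-06). So the neuropilins had opposite order in aECs, with *Nrp1* at its highest and *Nrp2* at its lowest among EC subtypes in each library, and this opposition itself was not tested.

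Genes around the VEGF pathway were read from 4 lists, and each gene named as higher or lower passed the edgeR quasi-likelihood test with Benjamini-Hochberg adjustment. The shares of all genes to set beside the counts are 39.9% for ECs against mpMSCs, 12.1% for mpECs against bmECs, 8.17% for aECs against mpECs, 15% for aECs against bmECs, 28.6% for dpMSCs, 27.6% for OBs and 30.8% for CHOs. Of the 32 tested genes of VEGF receptor signalling (34 listed), 19 were higher and 3 lower in ECs than in mpMSCs, with a median log2 fold change of 0.81 beside -0.05 for all genes. *Ptprb*, the endothelial receptor phosphatase, was higher, with 1993 and 1507 UMIs in mpECs and 0 in mpMSCs of the metaphyseal libraries, as was *Nos3*, endothelial nitric oxide synthase, with 316 and 252 UMIs against 0. *Src*, a non-receptor kinase with 2 and 3 UMIs in mpECs and 5 and 3 in the far smaller mpMSC sums, was lower. Among EC subtypes 1 was higher and 1 lower in mpECs against bmECs, a smaller share than that of all genes. The counts were 4 and 2 in aECs against mpECs and 4 and 4 in aECs against bmECs, larger shares than those of all genes, and no such difference in share was tested. *Nos3* was higher in mpECs than in bmECs (1.33 ± 0.25, SE) and in aECs than in bmECs (1.81 ± 0.30), and *Yes1*, a SRC family kinase, was lower in aECs than in mpECs (-1.07 ± 0.18). In dpMSCs 7 were higher and 5 lower than in mpMSCs (median 0.10, all genes 0.06), in OBs 11 and 3 (0.36, all genes 0.03) and in CHOs 9 and 1 (0.36, all genes 0.02). The kinase *Fyn* was lower in dpMSCs (-2.18 ± 0.19) and higher in OBs (1.91 ± 0.17), and *Nfatc1*, a calcineurin-dependent transcription factor, was higher in CHOs (3.07 ± 0.30).

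Of 13 neuropilin partners, the semaphorins, plexins and their associates, 4 were higher and 4 lower in ECs than in mpMSCs (median 0.17). *Sema3a*, a ligand of NRP1, had 56 and 46 UMIs in mpECs and 461 and 368 UMIs in bmECs of metaphyseal replicates 1 and 2, and 0 in aECs of both. Its log2 fold change was -3.68 ± 0.22 in mpECs against bmECs (SE; edgeR quasi-likelihood test, Benjamini-Hochberg adjusted p = 8.99e-10), within a list where 1 gene was higher, 2 lower and 10 did not pass. *Plxnd1*, a plexin of endothelial cells, was lower in aECs than in mpECs (-1.67 ± 0.20, SE) and in bmECs (-1.57 ± 0.20), where 2 and 4 of the 13 were lower (medians -0.86 and -1.22, beside -0.20 for all genes in both). In dpMSCs 1 was higher and 6 lower than in mpMSCs, *Sema3a* among the latter (-2.36 ± 0.26, SE). OBs, the population of high *Nrp2*, had 4 higher and 3 lower, with *Sema3d* higher (4.37 ± 0.42, SE) and *Plxna2* lower (-3.83 ± 0.23). CHOs had 4 and 4, with *Plxna2* lower again (-4.70 ± 0.29, SE).

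Of the 13 tested genes of oxygen sensing (14 listed), 2 were higher and 1 lower in ECs than in mpMSCs. *Epas1*, the hypoxia-inducible factor 2α, was higher in ECs (3.24 ± 0.20, SE), in aECs against mpECs (1.51 ± 0.20) and in dpMSCs (2.7 ± 0.20), and lower in OBs (-1.35 ± 0.22). In mpECs against bmECs 0 of the 13 passed by edgeR's quasi-likelihood test and 0 by DESeq2's Wald test, with 1 higher and 2 lower at an unadjusted p under 0.05, and in aECs 1 was higher than in mpECs and 2 than in bmECs by edgeR, where DESeq2's Wald test gave 3 and 3. CHOs had 6 higher and 1 lower, with a median of 1.22 beside 0.02 for all genes, among them the glucose transporter *Slc2a1* (3.61 ± 0.28, SE) and *Bnip3* (2.76 ± 0.25), a target of hypoxia-inducible factors. dpMSCs had 3 higher and 2 lower, and OBs 1 and 1. Of the 12 genes known to respond to VEGF in endothelium, 6 were higher in ECs than in mpMSCs, and the counts of higher and lower genes were 4 and 1 in mpECs against bmECs, 3 and 3 in aECs against mpECs, 4 and 1 in aECs against bmECs, 3 higher in dpMSCs, 1 and 1 in OBs, and 3 and 1 in CHOs. In mpECs against bmECs the median log2 fold change of the list was -0.08, beside -0.001 for all genes. *Apln*, a peptide of sprouting endothelium, had 336 and 213 UMIs in mpECs, 35 and 27 in bmECs and 5 and 0 in aECs of the metaphyseal libraries, and its log2 fold change was 2.46 ± 0.33 in mpECs against bmECs (SE; edgeR quasi-likelihood test, Benjamini-Hochberg adjusted p = 2.10e-05). *Esm1*, endocan, a tip cell gene, was higher in mpECs than in bmECs (3.27 ± 0.68, SE, from 7 and 5 UMIs in bmECs) and in aECs than in mpECs (2.28 ± 0.48), but its largest sums were in dpMSCs, with 5583, 5151 and 17116 UMIs, where it was higher than in mpMSCs by 6.96 ± 0.48. In CPM *Dll4* and *Angpt2* lay the other way, with mpECs under bmECs in both metaphyseal libraries. Both are given as levels and not as calls, since only 1 gene of the list passed the test as lower there. *Dll4* was at 55.9 and 52.0 against 76.4 and 69.9 CPM. *Angpt2* was at 3.10 and 2.72 against 6.99 and 6.04 CPM, from 12 and 8 against 16 and 12 UMIs.

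Across the 22 sums the genes most like each member were found by Pearson's r of log2(CPM + 10), given as a description since sums share libraries and depth. *Kdr* was most like *Mmrn2* and *Rapgef5* (r = 0.997 and 0.997), *Flt1* like *Tie1* and *Adgrl4* (0.998 and 0.997), and *Flt4* like *A530083M17Rik* and *Btnl9* (0.990 and 0.990). *Nrp1* was most like *Epas1* and *Apbb2* (0.975 and 0.965). *Nrp2* was most like the overlapping *Gm37121* (0.915) and *Cdr2l* (0.831). Of the ligands, *Vegfc* was most like *Igfbp3* and *Fam13c* (0.980 and 0.953), *Pgf* like *S1pr3* and *Rasl11a* (0.943 and 0.940), *Vegfa* like *Socs3* and *Thap6* (0.901 and 0.857), and *Vegfb* like *Ube3a* and *Rab20* (0.883 and 0.862).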

How the data were processed

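The authors trimmed reads with fastp 0.20, counted UMIs with STARsolo (STAR 2.7.3a) on mm10 with Gencode M23 and the H2B-GFP sequence, and deposited raw counts per gene and barcode without cell filter or normalization, per the study's methods. The labels also name Cell Ranger and bcl2fastq, with no role, and do not say which chemistry version a library had. Here the study's stated filters were applied (at least 1500 genes per cell in metaphyseal and 1000 in *Pdgfra-GFP* cells, at most 15% mitochondrial and 30% ribosomal UMIs). Cells were gated by the mean scaled level of marker lists (score at least 0.2 and 0.05 above the next list, 0.15 and 0.05 for subtypes), not by the authors' clusters. The members, marker lists and pathway lists were chosen with earlier results of these data known, and the gate settings were set after the levels of the 9 genes had been seen at both margins tried (0.1, in 1 alternative, and 0.05). Scrublet doublets (scanpy 1.11.5; 25, 19 and 151 cells) were kept.

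UMIs were added up for mpMSCs, dpMSCs, OBs and CHOs of each library, ECs (3 subtypes and the rest) of the metaphyseal libraries, and SCs and fibroblasts of the *Pdgfra-GFP* library, all with 10 or more cells, and these 22 sums were fitted in 1 model with edgeR 4.0.16 (TMM, filterByExpr, quasi-likelihood test, library as a block, Benjamini-Hochberg over 14667 genes, threshold 0.05). DESeq2 1.42.0, R 4.3.3 and Python 3.11.15 were used for alternatives and sums. The contrasts between EC subtypes rest on 2 libraries, and the third enters only through normalization and the shared spread, whereas its mpMSCs enter ECs against mpMSCs. CPM divides by all UMIs of a sum. Intervals are exact (Poisson, or for ratios conditional binomial) at 95%, cover counting error only, and treat UMIs as independent. Named pathway genes are at most the 3 called genes with the largest fold change in each list and comparison, and the like genes are the 2 with the highest r. Positions are from Gencode M21, not M23, on the same build. Simulated sums for mpECs against bmECs were drawn from the means and spread fitted by the same model. Of the 14130 genes that passed the filter on low counts there, 192 had been changed 4-fold. Of these, 148 were found, and 15 unchanged genes (0.108%) were called. Such sums cannot show errors from spread that the model does not hold.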

Additional observations from a re-analysis of the deposited data

Results flagged for a closer look

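In 5 cases both metaphyseal libraries lay on one side of mpMSCs and the *Pdgfra-GFP* library on the other, and none of these differences between libraries was tested. The ratio of *Vegfa* in CHOs to mpMSCs was 0.879 in the *Pdgfra-GFP* library (14.9 against 17.0 CPM), whereas CHOs were higher in both metaphyseal libraries (104 against 56.7 CPM and 74.8 against 50.02 CPM). The share of hCHOs among CHO-gated cells also differed, with 24 of 40 and 21 of 38 cells in the metaphyseal libraries and 199 of 1694 in the *Pdgfra-GFP* library. For *Vegfa* in SCs the ratio was 1.51 in the *Pdgfra-GFP* library (25.7 against 17.0 CPM), and SCs were lower in the metaphyseal libraries, on 2 and 4 UMIs. *Nrp2* in ECs had a ratio of 0.924 in the *Pdgfra-GFP* library and was higher than in mpMSCs in both metaphyseal libraries. These *Nrp2* values are of all EC-gated cells together. The fit, which weights the EC subtypes equally, gave a log2 fold change of -0.24 that did not pass the test. *Flt1* and *Flt4* in OBs had ratios of 0.426 and 0.498 in the *Pdgfra-GFP* library, on few UMIs, and were higher than in mpMSCs in the metaphyseal ones.

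The endothelial, mural and myeloid cells of the *Pdgfra-GFP* library were not in the 22 sums tested (the endothelial ones entered 1 alternative), and their levels above the near-empty barcodes of that library were as follows. In aECs *Vegfc* was at 247 CPM, *Kdr* at 483 CPM, *Flt1* at 576 CPM, *Flt4* at 44.6 CPM and *Nrp1* at 538 CPM. In mpECs *Kdr* was at 539 CPM, *Flt1* at 718 CPM, *Flt4* at 101 CPM, *Nrp1* at 369.8 CPM and *Nrp2* at 175 CPM. In bmECs *Vegfb* was at 37.3 CPM, *Kdr* at 1067 CPM, *Flt1* at 472 CPM, *Flt4* at 373 CPM, *Nrp1* at 298 CPM and *Nrp2* at 229 CPM. Mural cells held *Pgf* at 389 CPM and *Nrp1* at 284 CPM. *Vegfb* was at 21.7 CPM in macrophages and 46.6 CPM in osteoclast-gated cells, in which *Nrp2* was at 648 CPM.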

How the results depend on the processing

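Of the 63 changes tested for the 9 genes 41 were called, and 20 of these kept direction and call under all 13 alternatives. The 41 include the *Nrp1* differences of ECs, dpMSCs and OBs from mpMSCs, which are descriptions only. The 20 include those of ECs and dpMSCs. None of the 41 reversed, 18 were lost without at least 1 library, 14 without the library block (*Kdr* and *Flt1* in dpMSCs and CHOs, *Vegfa* in dpMSCs, *Vegfc* and *Nrp1* in OBs, *Flt4* and *Vegfb* in mpECs against bmECs, *Flt1* and *Flt4* in aECs against mpECs, and *Kdr*, *Nrp1* and *Vegfa* in aECs against bmECs) and 6 with doublets removed, and 5 others gained a call. In the order mpEC and aEC against bmEC, aEC against mpEC, and dpMSC, OB and CHO against mpMSC, the number of called members without the library block was 3, 5, 3, 4, 2 and 3, and with 1 library left out it ran from 2 to 7, 4 to 8, 3 to 6, 4 to 6, 2 to 3 and 3 to 5. In CHOs it was 3 with doublets removed and 3 with *Pdgfra-GFP* endothelial sums added. Reversals, all of changes that were not called, were *Vegfa* in OBs (-0.0081 by the DESeq2 Wald test, and -0.38 to 0.31 with 1 library left out), *Vegfa* in aECs against mpECs (-0.50 with the stricter gate, -0.69 to 0.44 with 1 library left out), *Flt4* in CHOs (-0.55 with doublets removed), *Nrp2* in ECs (-0.53 to 0.03) and *Nrp1* in CHOs (-0.73 to 0.36), and the cause was not tested. A minimum of 20 cells per sum left the same sums.

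Called genes among all tested were 5853 for ECs, 1776 for mpEC and 2204 for aEC against bmEC, 1198 for aEC against mpEC, and 4189, 4050 and 4520 for dpMSC, OB and CHO. In that order, fewer samples gave 3760, 378, 700, 296, 2482 and 2312 (dpMSC and OB last) without metaphyseal replicate 1, and 3703, 315, 643, 270, 2420, 2365 and 2964 without replicate 2. Without the *Pdgfra-GFP* library 3314 genes were called for mpEC against bmEC, 2114 for OB and 2359 for CHO, and without the block 673, 1411, 658 and 2340 for mpEC and aEC against bmEC, aEC against mpEC, and OB. SCs of the metaphyseal libraries, 9 cells each, were below the minimum for a sum, and metaphyseal mpMSCs (29 and 23 cells) limit every comparison with mpMSCs.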

Other observations

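Late osteoblasts, the OB-gated cells with *Dmp1*, *Mepe* and *Phex*, held *Vegfa* at 33.2, 53.3 and 23.1 CPM and *Nrp2* at 723, 706 and 424 CPM in metaphyseal replicates 1 and 2 and then the *Pdgfra-GFP* cells. The 78 macrophage-gated cells of the *Pdgfra-GFP* library had *Nrp1* at 79.1 CPM and *Nrp2* at 136 CPM, and the 20 osteoclast-gated cells had *Nrp1* at 3.88 CPM from 1 UMI beside 167 UMIs of *Nrp2*. These cells were in a library sorted for GFP+, and no comparison with them was tested.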
